A study of Mus musculus with 16 samples.

Results

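The comparison sets splenic B cells of mice fed HAMSB, a high-amylose starch that carries butyrate, against those of mice fed HAMS, the same kind of starch without it. It takes in the 4 HAMSB libraries (numbered 1, 2, 5 and 6 in the labels) and the 4 HAMS libraries (numbered 1, 4, 5 and 6), 8 of the 16 libraries sequenced. The members were chosen by the diet label alone. All mice were of the NOD.LT strain, a line of the non-obese diabetic mouse, were 15 weeks old and had eaten their diet freely for 5 weeks. The other 8 libraries came from mice on NP, which the protocol calls Gordons, and on HAMSA, the acetate-bearing starch, and their levels are given beside the comparison. B cells were taken from the spleen by negative selection, in which antibodies hold back other cells, and their poly(A) RNA was read as stranded libraries. The pair of diets asks what bound butyrate adds to the starch.

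High-amylose starch resists digestion and reaches the colon, where bacteria ferment it to short-chain fatty acids and free any acid bound to it. Butyrate is known as a fuel that cells oxidise, as a ligand of G protein-coupled receptors and as an inhibitor of histone deacetylases, the enzymes that take acetyl groups off histones. Resting B cells keep the RNA of immediate early genes and of inducible heat shock proteins low, and both rise within a short time of a stimulus such as antigen, cAMP, heat or mechanical handling.

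The 8 libraries held between 31826691 and 46206200 counts in genes. Levels are CPM, a gene's count scaled to the library's depth with TMM factors, and differences are log2 fold changes of HAMSB minus HAMS with their standard error (SE) from edgeR. B cell markers summed to between 12600 and 15200 CPM in the HAMS libraries and between 13100 and 14900 CPM in the HAMSB libraries. HAMSB 1 and HAMSB 2 stood above the other 6 libraries in erythroid, T cell and NK cell markers. Erythroid markers summed to 881 CPM in HAMSB 1 and 1804 CPM in HAMSB 2, against 131 to 229 CPM in the other 6 libraries. HAMSB 5 had the largest share of unmapped reads of the 8, 10.2%. The labels do not say whether libraries came from separate mice, so p-values measure the spread between libraries. That spread was estimated over all 16 libraries of the 4 diets.

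**Figure D1:**
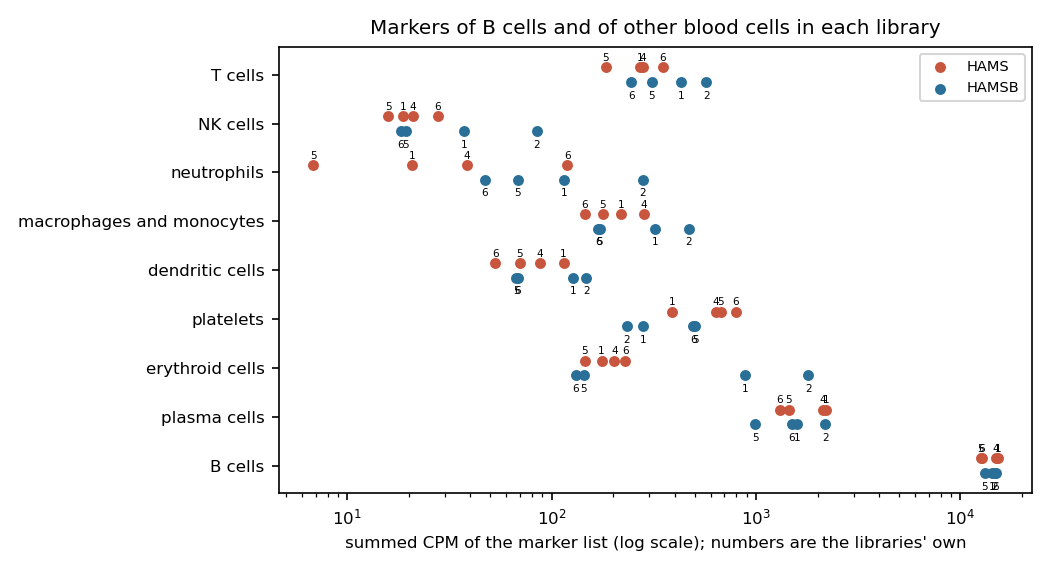
Summed CPM of marker lists (log scale) in the 4 HAMS and 4 HAMSB libraries, each point labelled with its library number. HAMSB 1 and HAMSB 2 lie to the right of the other libraries for erythroid, T cell and NK cell markers, while B cell markers lie between 12600 and 15200 CPM in all 8.

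Fewer genes were higher in HAMSB than were lower. Of 15021 genes tested, 187 fell (1.24% of those tested) and 65 rose (0.433%) at an adjusted p below 0.05 (edgeR quasi-likelihood, Benjamini-Hochberg over all genes tested), or 1.68% in either direction. The genes that fell had a median log2 fold change of -0.79 and 57 of them fell at least 2-fold. Those that rose had a median of 0.65, and 12 rose at least 2-fold. The CPM of the 2 diets did not overlap for 185 of the 187 and for 63 of the 65 genes, while over all genes tested 4.11% were lower and 3.19% higher without overlap, 7.3% in all. Of the genes that fell, 171 were protein-coding and 10 were annotated as pseudogenes, whose reads may belong to their parent genes. With library totals in place of TMM the split was 141 lower and 142 higher, which moved the median of all genes from 0.01 to 0.08. With only the 2 diets fitted, 109 genes fell and 27 rose. The count of falls was 92 without HAMS 4, 98 without HAMSB 1, 107 without HAMSB 6, 113 without HAMS 6 and 124 without HAMSB 5, and that of rises was between 35 and 39 without HAMS 4, HAMSB 1, HAMSB 5 or HAMSB 6. Without HAMSB 1 and HAMSB 2 together, 92 genes fell and 63 rose, and 69 and 36 of these were among the 187 and the 65. That pair was left out together after the data were seen. The first principal component of the 8 libraries separated the numbers 5 and 6 from 1, 2 and 4 in both diets. Within the numbers 5 and 6 alone 64 genes fell and 38 rose, and within 1 to 4 alone 77 fell and 31 rose. Here and below, these comparisons contrast only those libraries, while the filter, scaling and spread came from all 16 libraries.

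**Figure D2:**
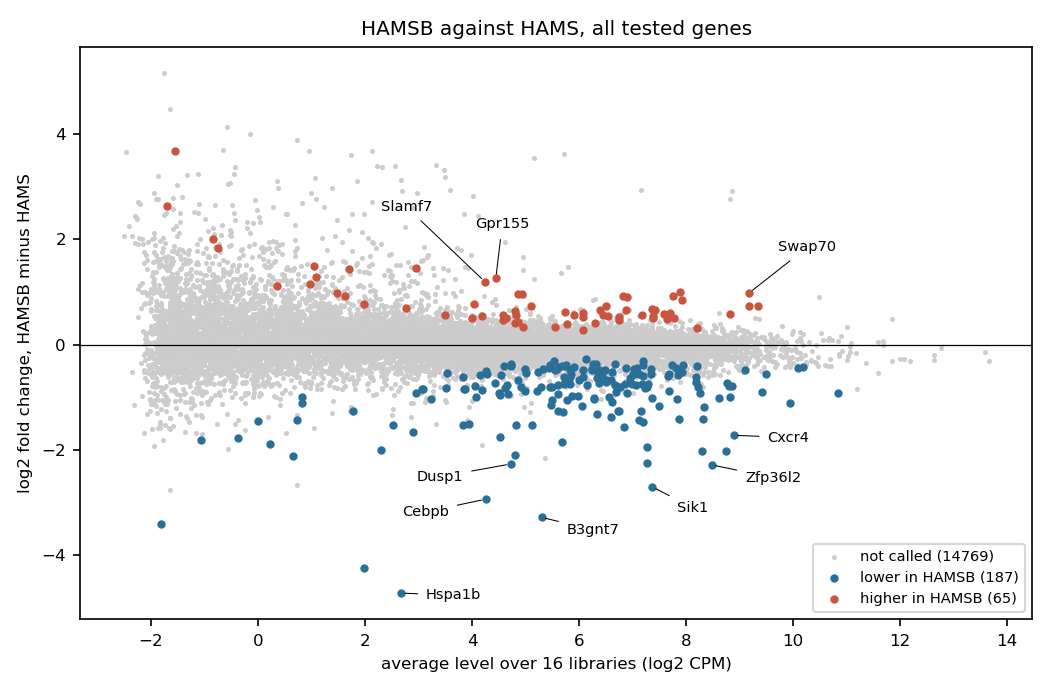
Log2 fold change of HAMSB minus HAMS against the average level over 16 libraries (log2 CPM), 1 point a gene. The 187 genes that fell reach -4.71 (Hspa1b), and the 65 that rose reach 3.68 (Dpf3, a gene below 1 CPM in these libraries).

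Many cytosolic and mitochondrial chaperone genes were among those that fell. Chaperones of the HSP70 class bind unfolded stretches of protein and release them on an ATP cycle, with HSP40 proteins to start the cycle and HSP110 proteins to exchange the nucleotide. Of 10 tested genes of the HSP70 and HSP110 list 6 fell and 0 rose, with a median of -0.81 against 0.01 over all genes tested. In the 4 HAMSB libraries the list's median lay between -0.67 and -0.79 relative to the HAMS mean, and in the HAMS libraries between -0.25 and 0.23.

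Hspa1b, the classic inducible HSP70, stood at 4.18, 32.0, 10.5 and 15.6 CPM in HAMS 1, 4, 5 and 6 and at 0.56, 0.346, 0.702 and 0.755 CPM in HAMSB 1, 2, 5 and 6. Every HAMS library was above every HAMSB library, and the HAMS libraries themselves spread widely. Hspa1b fell by 4.71 on the log2 scale (SE 0.913, edgeR adjusted p = 0.0127). Its neighbour and near-copy Hspa1a fell by 4.24 (SE 0.888, edgeR adjusted p = 0.0204). The 2 genes are near-identical, and reads that map to more than 1 place were left unassigned in the counts. The level of each is thus uncertain and may be too low. Hsph1, the HSP110 exchange factor, stood at 297, 791, 567 and 694 CPM in HAMS 1, 4, 5 and 6 and between 116 and 158 CPM in HAMSB. It fell by 2.02 (SE 0.411, edgeR adjusted p = 0.0171). Hspa8, the constitutive cytosolic HSP70, was at 401 to 585 CPM in HAMS and at 174 to 241 CPM in HAMSB, and fell by 1.17 (SE 0.202, edgeR adjusted p = 0.00629). The mitochondrial HSP70 gene Hspa9 (-0.44) and the HSP110 family gene Hspa4 (-0.39) fell by less.

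Among 16 genes of HSP40 co-chaperones 3 fell, with a median over the list of -0.21. Dnaja1, a main partner of HSPA8, was the most uniform of them in HAMSB. It stood at 202, 355, 303 and 337 CPM in HAMS 1, 4, 5 and 6 and at 77.7, 79.6, 77.5 and 78.4 CPM in HAMSB 1, 2, 5 and 6, and fell by 1.93 (SE 0.312, edgeR adjusted p = 0.00447). The HAMS libraries were spread and the HAMSB libraries were nearly level. Dnajb1, the partner of the inducible HSP70, fell by 1.55 (SE 0.298, edgeR adjusted p = 0.0118), and Dnajb2 fell by 0.80.

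HSP90 matures kinases and steroid receptors with a set of co-chaperones, and 7 of 16 genes of that list fell, with a median of -0.71. Stip1, which hands clients from HSP70 to HSP90, was at 240, 491, 324 and 432 CPM in HAMS 1, 4, 5 and 6 and at 127 to 154 CPM in HAMSB, and fell by 1.42 (SE 0.25, edgeR adjusted p = 0.00686). The inducible HSP90 gene Hsp90aa1 fell by 1.41 (SE 0.322, edgeR adjusted p = 0.0354). The HSP90 ATPase activators Ahsa1 (-1.0) and Ahsa2 (-1.38), the co-chaperones Chordc1 (-1.25) and Ptges3 (-1.17) and the immunophilin Fkbp4 (-0.87) fell as well. HAMS 1 was the lowest of the HAMS libraries for Stip1, Hsp90aa1, Ahsa1, Ahsa2, Chordc1 and Fkbp4 and was still above every HAMSB library.

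Chaperonins, the barrels that fold proteins in a closed chamber, made up another list. In it 7 of 10 genes fell, with a median of -0.51. The mitochondrial pair Hspd1 (HSP60) and Hspe1 (HSP10) fell by 1.16 (SE 0.188, edgeR adjusted p = 0.00451) and by 1.06 (SE 0.204, edgeR adjusted p = 0.0123). Hspd1 stood at 209, 363, 252 and 272 CPM in HAMS 1, 4, 5 and 6 and at 137, 139, 95.7 and 120 CPM in HAMSB 1, 2, 5 and 6. Of the cytosolic ring Cct6a (-0.74), Cct7 (-0.58), Cct3 (-0.51), Tcp1 (-0.51) and Cct8 (-0.48) fell. Among heat shock factors, small heat shock proteins and BAG proteins 1 of 13 fell, the HSP70 co-chaperone Bag3 (-1.27). Hsf1, the transcription factor that drives the heat shock response, was at 91.9 to 117 CPM in HAMS and 92.9 to 125 CPM in HAMSB (difference 0.00, SE 0.105, edgeR adjusted p = 0.999).

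Of these chaperone calls, those of Hspa8, Dnaja1, Stip1, Ahsa1, Fkbp4 and Hspd1 held without each of the 8 libraries in turn. Hspa1b lost its call without HAMSB 1 (edgeR adjusted p = 0.0531), and Dnajb1 and Hspe1 lost theirs without HAMS 4 (edgeR adjusted p = 0.0548 and 0.0552). Hspa9, Ahsa2, Cct8 and Bag3 lost it without 3 of the libraries, Cct6a and Cct3 without 4, Hspa1a and Hsph1 without 5, and Hspa4, Dnajb2, Hsp90aa1, Chordc1, Ptges3, Tcp1 and Cct7 without 7, with edgeR adjusted p of at most 0.169. No chaperone value moved by more than 1.5 times when 1 library was left out. Without HAMSB 1 and HAMSB 2 together 2 genes of the HSP70 list, 1 of the HSP90 list and 6 of the chaperonin list were called lower.

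Heat shock promoters carry inverted repeats of GAA, and 5 promoters of genes that fell are shown because each holds such a repeat in the 250 bases before its start. Sequences are from RefSeq (GRCm38.p6), read 5′ to 3′ on the gene's strand, and capitals mark matches to GAANNTTC or TTCNNGAA, which read the same on both strands. The windows are chr17:34959239-34959488 (minus strand) for Hspa1b, chr17:34972157-34972406 (minus) for Hspa1a, chr5:149636337-149636586 (minus) for Hsph1, chr4:40722218-40722467 (plus) for Dnaja1 and chr1:55087898-55088147 (plus) for Hspe1.
Hspa1b: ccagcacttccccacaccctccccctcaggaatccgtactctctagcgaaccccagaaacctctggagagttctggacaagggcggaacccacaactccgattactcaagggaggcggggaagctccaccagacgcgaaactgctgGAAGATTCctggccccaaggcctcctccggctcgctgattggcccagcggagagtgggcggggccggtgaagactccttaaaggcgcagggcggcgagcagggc
Hspa1a: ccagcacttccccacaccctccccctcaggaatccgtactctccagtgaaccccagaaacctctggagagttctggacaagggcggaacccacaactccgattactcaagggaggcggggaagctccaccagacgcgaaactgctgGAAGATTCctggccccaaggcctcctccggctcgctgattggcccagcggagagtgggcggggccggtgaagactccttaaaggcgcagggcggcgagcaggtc
Hsph1: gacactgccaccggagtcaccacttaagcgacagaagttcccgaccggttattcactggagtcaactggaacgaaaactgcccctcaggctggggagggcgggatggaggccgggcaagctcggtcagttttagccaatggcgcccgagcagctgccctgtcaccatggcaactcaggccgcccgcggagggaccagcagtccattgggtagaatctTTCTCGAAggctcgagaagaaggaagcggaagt
Dnaja1: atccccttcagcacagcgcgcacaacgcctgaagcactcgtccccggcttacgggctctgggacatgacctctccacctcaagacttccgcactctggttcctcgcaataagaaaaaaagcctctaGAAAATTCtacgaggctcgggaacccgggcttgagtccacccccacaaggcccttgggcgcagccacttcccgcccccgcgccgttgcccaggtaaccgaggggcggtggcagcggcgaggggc
Hspe1: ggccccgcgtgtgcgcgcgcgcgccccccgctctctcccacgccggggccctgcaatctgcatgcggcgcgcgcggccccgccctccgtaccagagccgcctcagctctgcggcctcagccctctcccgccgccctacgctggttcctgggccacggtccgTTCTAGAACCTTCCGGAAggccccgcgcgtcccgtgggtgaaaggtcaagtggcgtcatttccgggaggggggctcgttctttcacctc
The Hspa1a and Hspa1b windows differ at 3 of 250 bases, and both hold the repeat at the same distance from the start. The Hspe1 window holds 3 overlapping matches in a row. Hspe1 and Hspd1 are read in opposite directions and overlap head to head, with the outermost annotated starts 111 bases apart (GENCODE M21), so the window lies within the annotated Hspd1 gene. A match was found in 10.4% of the promoters of 9849 tested genes, against 21 of 134 genes that fell (15.7%) and 4 of 49 that rose (8.16%). Within the chaperone lists 6 of 21 promoters of genes that fell hold one (28.6%) and 5 of 33 promoters of genes not called lower do (15.2%).

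Chaperones of the endoplasmic reticulum had fewer calls. Of 25 genes for these chaperones and the unfolded protein response 4 fell, with a median of -0.25. Herpud1, which serves the degradation of misfolded proteins, was at 223 to 277 CPM in HAMS and at 160 to 176 CPM in HAMSB, and fell by 0.60 (SE 0.0905, edgeR adjusted p = 0.00278). Manf (-0.68), Hspa5, which encodes the ER HSP70 BiP (-0.56), and Sdf2l1 (-0.44) fell too. In the integrated stress response list 3 of 22 genes fell, namely Cebpb, Ddit3 (CHOP, -0.67) and Trib3 (-0.53). Cebpb, a bZIP transcription factor, was at 13.2, 26.4, 45.3 and 47.4 CPM in HAMS 1, 4, 5 and 6 and at 3.23 to 5.03 CPM in HAMSB, and fell by 2.93 (SE 0.396, edgeR adjusted p = 0.00129). Of 31 proteasome subunits 0 were called in either direction, and 30 had a negative value with a median of -0.17. The subunit with the smallest p was Psma1 (-0.31, edgeR adjusted p = 0.256), which passed without HAMSB 1 and HAMSB 2 together (-0.55, edgeR adjusted p = 0.048). Sdf2l1 lost its call without HAMS 4 (edgeR adjusted p = 0.0584), and Manf, Hspa5 and Trib3 lost theirs without 4, 6 and 7 of the libraries, with edgeR adjusted p of at most 0.118.

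**Figure D3:**
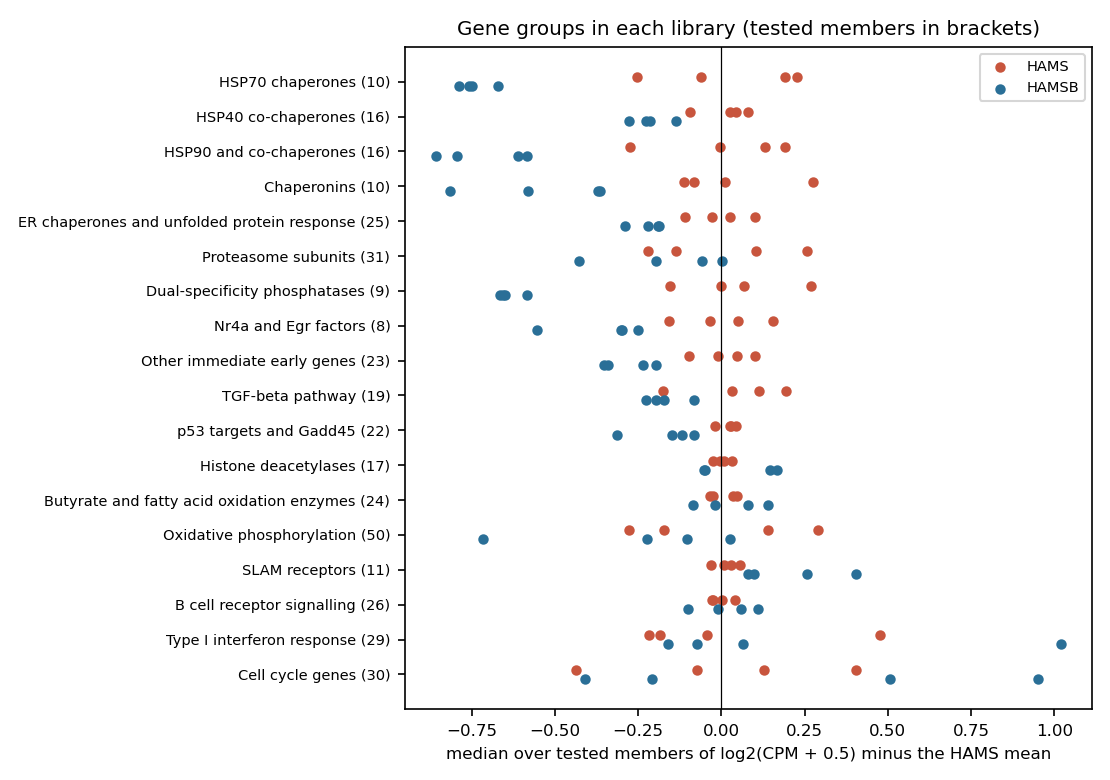
For each gene group, the median over its tested members of log2(CPM + 0.5) minus the HAMS mean, in the 4 HAMS and 4 HAMSB libraries. The HSP70, HSP40, HSP90, chaperonin and ER chaperone groups and the dual-specificity phosphatases are lower in HAMSB without overlap, with HSP70 between -0.67 and -0.79. So are the NR4A and EGR factors, the other immediate early genes and the p53 targets. SLAM receptors are higher in HAMSB without overlap, by a narrow margin (0.08 or more against 0.06 or less). Cell cycle and interferon groups overlap and are highest in HAMSB 2.

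Sik1 and Crem, both known CREB targets, fell, while most genes of the cAMP pathway were not called. Salt-inducible kinases restrain CREB-regulated transcription by keeping the CRTC coactivators out of the nucleus. Sik1 stood at 280, 330, 347 and 421 CPM in HAMS 1, 4, 5 and 6 and at 52.5, 53.1, 54.6 and 52.1 CPM in HAMSB 1, 2, 5 and 6. The 4 HAMSB libraries were almost level and lay far below the lowest HAMS library. Sik1 fell by 2.70 (SE 0.309, edgeR adjusted p = 0.000356). Crem, which encodes CREB-family activators and the short repressor ICER, was at 25.8, 71.6, 67.8 and 86.7 CPM in HAMS 1, 4, 5 and 6 and at 12.5 to 17.5 CPM in HAMSB, and fell by 2.10 (SE 0.313, edgeR adjusted p = 0.00272). These were 2 of 25 tested genes of the salt-inducible kinase and cAMP list, whose median was -0.12. The next by p was Prkar1a, a regulatory subunit of protein kinase A (-0.28, edgeR adjusted p = 0.155).

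Of 8 genes for NR4A and EGR factors 3 fell. The orphan receptors of the NR4A family are early markers of antigen receptor signalling. Nr4a1 stood at 69.4, 112, 73.4 and 111 CPM in HAMS 1, 4, 5 and 6 and at 32.3, 35.7, 43.1 and 39.3 CPM in HAMSB 1, 2, 5 and 6, and fell by 1.28 (SE 0.185, edgeR adjusted p = 0.00223). Nr4a3 fell by 1.65 (SE 0.305, edgeR adjusted p = 0.00943), and Nab2, a corepressor of EGR proteins, by 0.77 (SE 0.126, edgeR adjusted p = 0.0049). Of 14 AP-1 genes only Junb passed the test (-0.59), and lost its call without 5 of the 8 libraries (edgeR adjusted p of at most 0.0808). Fosl2 had a larger value (-1.33, SE 0.339) with an edgeR adjusted p of 0.0651, and passed in DESeq2 (adjusted p = 0.00348), with the numbers 5 and 6 alone (edgeR adjusted p = 0.0352) and without HAMS 1 (edgeR adjusted p = 0.0435).

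Dual-specificity phosphatases switch off MAP kinases, and 4 of 9 fell, with a median of -0.74. Dusp1, an immediate early gene, was at 43.1, 45.9, 56.6 and 66.5 CPM in HAMS 1, 4, 5 and 6 and at 11.2, 12.5, 12 and 8.44 CPM in HAMSB 1, 2, 5 and 6, and fell by 2.27 (SE 0.255, edgeR adjusted p = 0.000312). Dusp5 (-1.53) and Dusp2 (-0.74), which act on nuclear ERK, also fell, as did the cytosolic Dusp7 (-0.88). Dusp1, Dusp2 and Dusp5 held their calls without each library in turn, and Dusp7 lost its call without 3 of them (edgeR adjusted p of at most 0.0626).

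Of 23 other immediate early genes 8 fell, with a median of -0.27. Plaur, the urokinase receptor, had the smallest p of all falls. It was at 199 to 264 CPM in HAMS and at 80.4 to 111 CPM in HAMSB, and fell by 1.26 (SE 0.114, edgeR adjusted p = 0.000103). Zfp36l2, an RNA-binding protein that shortens the life of AU-rich mRNA, was at 485, 510, 823 and 948 CPM in HAMS 1, 4, 5 and 6 and at 117 to 178 CPM in HAMSB, and fell by 2.28 (SE 0.356, edgeR adjusted p = 0.00368). Ier2 (-0.98), the activation antigen Cd69 (-0.95) and the DNA damage gene Gadd45a (-0.85) fell, all with groups that do not overlap. Ier5l (-1.77), present at under 2 CPM in every library, fell too, and so did the antiproliferative genes Btg1 (-0.44) and Btg2 (-0.41). Ier5l, Btg1 and Btg2 lost their calls without 2, 6 and 6 of the libraries, with edgeR adjusted p of at most 0.168.

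The promoters of Nr4a1, Nr4a3 and Dusp1 are shown because each holds several copies of TGACG, the core of the cAMP response element. Capitals mark TGACG or its reverse complement, and the core lies within the full palindrome TGACGTCA. The windows are chr15:101266596-101266845 (plus strand) for Nr4a1, chr4:48045055-48045304 (plus) for Nr4a3 and chr17:26508473-26508722 (minus) for Dusp1, from RefSeq (GRCm38.p6).
Nr4a1: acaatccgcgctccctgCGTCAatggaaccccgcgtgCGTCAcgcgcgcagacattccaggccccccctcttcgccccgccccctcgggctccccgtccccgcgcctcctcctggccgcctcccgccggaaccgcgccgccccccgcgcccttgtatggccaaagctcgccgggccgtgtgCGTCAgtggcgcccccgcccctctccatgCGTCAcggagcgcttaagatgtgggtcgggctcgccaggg
Nr4a3: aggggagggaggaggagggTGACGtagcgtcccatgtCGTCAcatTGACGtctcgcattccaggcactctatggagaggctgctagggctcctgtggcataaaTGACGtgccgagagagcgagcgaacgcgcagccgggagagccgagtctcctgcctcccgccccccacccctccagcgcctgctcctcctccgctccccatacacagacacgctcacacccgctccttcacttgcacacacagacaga
Dusp1: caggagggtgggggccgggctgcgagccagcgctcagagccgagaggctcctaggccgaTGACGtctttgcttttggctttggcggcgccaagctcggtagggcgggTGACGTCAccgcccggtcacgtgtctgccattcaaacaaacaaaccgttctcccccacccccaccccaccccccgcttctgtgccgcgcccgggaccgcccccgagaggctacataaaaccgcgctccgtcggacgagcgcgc
Nr4a1 and Nr4a3 hold 4 matches each, and Dusp1 holds 3, of which 2 form 1 full palindrome. The core is present in 27.0% of the 9849 promoters, in 50 of 134 genes that fell (37.3%) and in 11 of 49 that rose (22.4%). Among genes of the cAMP, NR4A, AP-1, other immediate early and phosphatase lists that fell, 7 of 13 promoters hold it (53.8%). Sik1, Crem, Zfp36l2, Ier2 and Cd69 also fell but had no sequence among the 9849 promoters, so they were not searched. The share among members of those lists that did not fall was not counted. Median GC content was 59.6% over all promoters, 63.2% for genes that fell, 58.4% for genes that rose and 66.4% for those 13. The part of GC content in these shares was not tested. The full palindrome is in 2.74% of all promoters and in 2.99% of those of genes that fell. The AP-1 sequence TGACTCA was found in 3.05% of all promoters, 5.22% of those of genes that fell and 2.04% of those that rose. The full palindrome of the glucocorticoid response element was in 1 of the 9849 and in 0 of the 134, too rare in this window to describe either group.

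**Figure D4:**
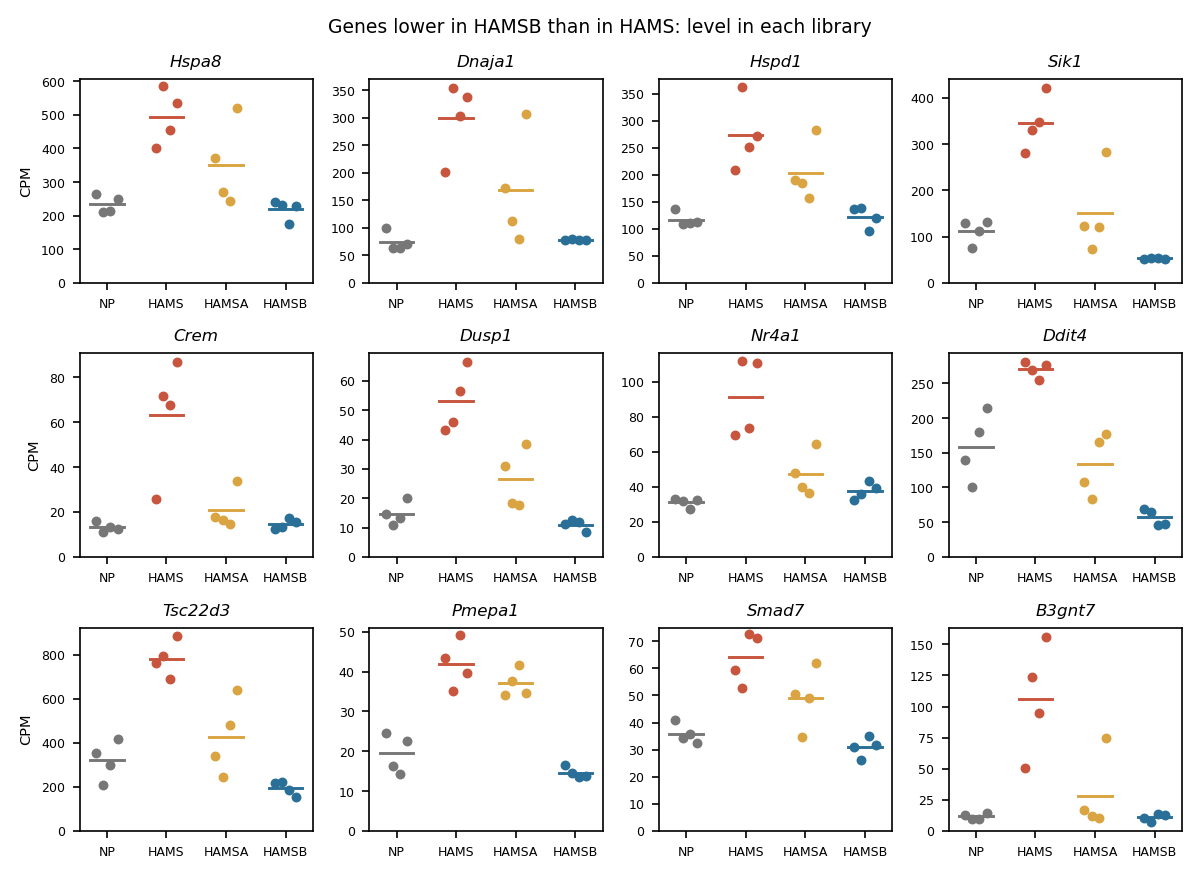
CPM of 12 genes lower in HAMSB, 1 point a library with the mean as a bar, for NP, HAMS, HAMSA and HAMSB. HAMSB lies below HAMS without overlap in every panel, and Sik1 lies between 52.1 and 54.6 CPM in the 4 HAMSB libraries.

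Genes known to respond to glucocorticoids or to mark resting lymphocytes fell in part. Of 16 glucocorticoid-responsive genes 4 fell, with a median of -0.24. Ddit4 (REDD1), which restrains mTORC1, was at 281, 269, 254 and 276 CPM in HAMS 1, 4, 5 and 6 and at 69.6, 64.0, 46.0 and 48.0 CPM in HAMSB 1, 2, 5 and 6, and fell by 2.25 (SE 0.248, edgeR adjusted p = 0.000312). Tsc22d3 (GILZ), a leucine zipper protein, was at 688 to 887 CPM in HAMS and at 155 to 220 CPM in HAMSB, and fell by 2.01 (SE 0.257, edgeR adjusted p = 0.000833). Cxcr4, the receptor for CXCL12 that holds B cells near stroma, fell by 1.72 (SE 0.278, edgeR adjusted p = 0.00447), from 754 to 978 CPM in HAMS to 223 to 289 CPM in HAMSB. The PI3-kinase inhibitor gene Pik3ip1 fell by 0.89 and lost its call without 7 of the libraries (edgeR adjusted p of at most 0.132). Nr3c1, the glucocorticoid receptor itself, had a value of -0.47 (SE 0.24, edgeR adjusted p = 0.401), and its levels overlapped. The clock gene Per1, which glucocorticoids and CREB also induce, had a value of -0.77 (SE 0.2, edgeR adjusted p = 0.0694). Per1 passed in 8 of the 23 alternatives, with adjusted p of 0.00961 in DESeq2 and, in edgeR, 0.02 with the replicate block, 0.0196 with the numbers 1 to 4, 0.00281 with the covariate for reads outside annotated exons, 0.00144 with the split of numbers as a term, 0.0151 without HAMS 1 and HAMSB 5 together, 0.047 without HAMS 1 and 0.0256 without HAMSB 5. In the quiescence list 4 of 15 fell, among them Tob2 (-0.79) and Ddit4, which is also counted above. Tob2 lost its call without 5 of the libraries (edgeR adjusted p of at most 0.0846).

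Some negative regulators of TGF-beta signalling fell. TGF-beta acts through SMAD proteins, which induce several of their own inhibitors. In that list of 19 genes 4 fell and 0 rose, and each of those that fell encodes a protein known to damp the pathway. Pmepa1, which takes SMADs away from the receptor, was at 43.5, 35.2, 49.3 and 39.5 CPM in HAMS 1, 4, 5 and 6 and at 16.5, 14.5, 13.6 and 13.8 CPM in HAMSB 1, 2, 5 and 6, and fell by 1.52 (SE 0.157, edgeR adjusted p = 0.000237). Smad7, the inhibitory SMAD, was at 52.8 to 72.7 CPM in HAMS and at 26.3 to 34.9 CPM in HAMSB, and fell by 1.05 (SE 0.152, edgeR adjusted p = 0.00223). The corepressor genes Tgif1 (-0.98) and Tgif2 (-0.60) fell too, with levels that did not overlap. The list's median was -0.23, nearer to 0 than the values of those 4. Tgif1 lost its call without 5 of the libraries (edgeR adjusted p of at most 0.0775), and the other 3 kept theirs.

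Of 22 p53 targets and GADD45 genes 5 fell, with a median of -0.13. Besides Gadd45a and Btg2 these were Plk3 (-0.58), the cyclin-dependent kinase inhibitor gene Cdkn1a (-0.85) and Sesn1 (-0.71), a leucine sensor upstream of mTORC1. Cdkn1a was at 8.88 to 14.1 CPM in HAMS and at 5.65 to 7.04 CPM in HAMSB. In the Bcl2 family the pro-apoptotic Bcl2l11 (BIM) was the only 1 of 15 tested genes to pass, at 109 to 186 CPM in HAMS and 70.7 to 94.2 CPM in HAMSB (-0.90, SE 0.183, edgeR adjusted p = 0.017). Cdkn1a, Sesn1 and Bcl2l11 lost their calls without 3, 7 and 5 of the libraries, with edgeR adjusted p of at most 0.114.

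Further genes that fell belong to no single list. B3gnt7, a glycosyltransferase of the Golgi, had the largest fall outside the heat shock genes but for Gprc5a (-3.41), which was below 1 CPM in all 8 libraries and was named after its value was seen. B3gnt7 stood at 50.9, 124, 94.7 and 156 CPM in HAMS 1, 4, 5 and 6 and at 10.5, 6.85, 13.4 and 13.1 CPM in HAMSB 1, 2, 5 and 6, and fell by 3.28 (SE 0.547, edgeR adjusted p = 0.0056). The orphan receptor gene Gpr171 (-1.47) and Ildr1 (-1.52) fell with groups that did not overlap. Il10ra, the ligand-binding chain of the interleukin-10 receptor, was named after its values were seen. It was at 518 to 683 CPM in HAMS and at 283 to 301 CPM in HAMSB, and fell by 1.02 (SE 0.132, edgeR adjusted p = 0.000907). Tnfrsf13c, the BAFF receptor that mature B cells need to survive, was the only 1 of 8 BAFF and APRIL receptor genes to pass (-0.78, SE 0.165, edgeR adjusted p = 0.0212). The activation marker Cd83, also named after its values were seen, fell by 0.81. Tnfrsf13c and Cd83 lost their calls without 6 and 5 of the libraries, with edgeR adjusted p of at most 0.0993.

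**Figure D5:**
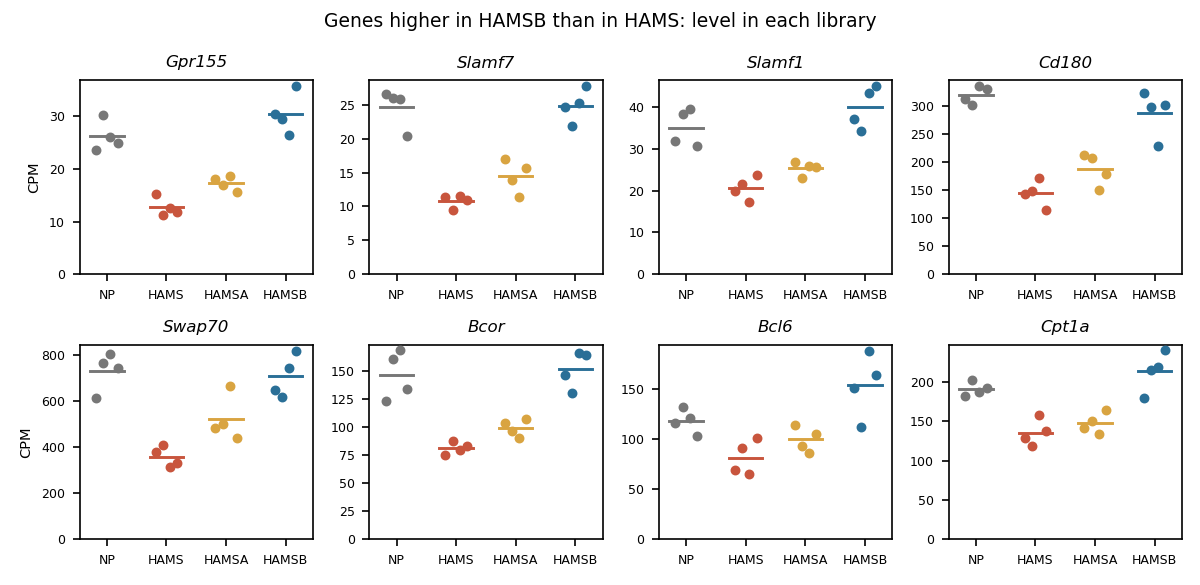
CPM of 8 genes higher in HAMSB, 1 point a library with the mean as a bar, for NP, HAMS, HAMSA and HAMSB. HAMSB lies above HAMS without overlap in every panel, as for Gpr155 at 26.5 to 35.7 against 11.3 to 15.3 CPM.

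The genes that rose included receptors, signalling proteins and transcriptional repressors. Kcnj1, a potassium channel gene, had the largest rise of the named genes above a log2 CPM of 1. Kcnj1 rose by 1.29 (SE 0.226, edgeR adjusted p = 0.00686), from 0.98 to 1.55 CPM in HAMS to 2.47 to 3.62 CPM in HAMSB. Neo1 rose by 0.77 and lost its call without 6 of the libraries (edgeR adjusted p of at most 0.149). Gpr155, a lysosomal cholesterol sensor of the mTORC1 pathway, stood at 15.3, 11.3, 12.5 and 11.8 CPM in HAMS 1, 4, 5 and 6 and at 30.3, 29.4, 26.5 and 35.7 CPM in HAMSB 1, 2, 5 and 6. It rose by 1.26 (SE 0.121, edgeR adjusted p = 0.000134), the smallest p among rises. Castor2, an arginine sensor family gene of the same pathway, rose by 0.51, and the mTORC1 list thus had 2 rises beside the falls of Ddit4 and Sesn1 among 24 genes. Castor2 lost its call without 7 of the libraries (edgeR adjusted p of at most 0.151).

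SLAM receptors are homophilic adhesion molecules of lymphocytes, and 2 of 11 rose. Slamf7 was at 9.51 to 11.6 CPM in HAMS and at 21.9 to 27.8 CPM in HAMSB, and rose by 1.20 (SE 0.13, edgeR adjusted p = 0.000312). Slamf1 was at 17.4 to 23.7 CPM in HAMS and at 34.3 to 45.2 CPM in HAMSB, and rose by 0.95 (SE 0.121, edgeR adjusted p = 0.000833). Cd180, a B cell relative of the Toll-like receptors, was at 143, 149, 172 and 114 CPM in HAMS 1, 4, 5 and 6 and at 324, 298, 228 and 303 CPM in HAMSB 1, 2, 5 and 6, and rose by 0.99 (SE 0.139, edgeR adjusted p = 0.0017). It was the only 1 of 16 genes of the Toll-like receptor list to pass.

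The germinal centre repressor Bcl6 and its corepressor Bcor both rose. Bcl6 was at 69.5, 90.8, 64.9 and 101 CPM in HAMS 1, 4, 5 and 6 and at 152, 113, 189 and 165 CPM in HAMSB 1, 2, 5 and 6. HAMSB 2 was the lowest of its diet and only just above HAMS 6. Bcl6 rose by 0.92 (SE 0.163, edgeR adjusted p = 0.00686), and Bcor rose by 0.90 (SE 0.11, edgeR adjusted p = 0.00055). With Id3, an inhibitor of E proteins (0.73), they were the 3 of 24 B cell fate factors that passed, while the plasma cell factor Prdm1 overlapped between diets (0.13, SE 0.206, edgeR adjusted p = 0.823). Id3 lost its call without 7 of the libraries (edgeR adjusted p of at most 0.138). For Bcl6 the edgeR adjusted p was 0.162 within the numbers 1 to 4 and 0.0652 with only the 2 diets fitted.

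Swap70, which links B cell receptor signals to the actin skeleton and to adhesion, was at 379, 408, 315 and 332 CPM in HAMS 1, 4, 5 and 6 and at 648, 619, 745 and 821 CPM in HAMSB 1, 2, 5 and 6. It rose by 0.98 (SE 0.142, edgeR adjusted p = 0.00223). In the B cell receptor list of 26 genes the other call was Dapp1, an adaptor recruited by PI3-kinase products, which fell by 0.46. The guanine nucleotide exchange factor gene Arhgef3 (0.93), the urea transporter gene Slc14a1 (0.96), the chondroitin sulfotransferase gene Chst3 (0.73), the core fucosyltransferase gene Fut8 (0.73), Snn (0.73), the SUMO ligase gene Zmiz1 (0.67) and the RNase gene Zc3h12d (0.66) rose too. Among secreted products Il12a, the p35 chain of IL-12 and IL-35, rose by 0.78 (SE 0.135, edgeR adjusted p = 0.00646), from 10.6 to 12.2 CPM in HAMS to 16.6 to 23.9 CPM in HAMSB, and the secreted amino acid oxidase gene Il4i1 rose by 0.85. Il10 stood below 0.6 CPM in all 8 libraries and showed no call (-0.81, SE 0.647, edgeR adjusted p = 0.62). Dapp1, Chst3 and Il4i1 lost their calls without 6, 3 and 2 of the libraries, with edgeR adjusted p of at most 0.0747.

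Among genes of fatty acid oxidation Cpt1a rose. Cpt1a, which brings long-chain fatty acids into mitochondria for oxidation, was at 119 to 158 CPM in HAMS and at 180 to 242 CPM in HAMSB, and rose by 0.66 (SE 0.106, edgeR adjusted p = 0.00445). It was the only 1 of 24 genes for butyrate and fatty acid oxidation to pass, and the list's median was 0.03. The desaturase gene Scd1, the elongase gene Elovl5 and the phosphatidate phosphatase gene Lpin1 were named after their values were seen. Scd1 was at 2132, 2891, 3025 and 2867 CPM in HAMS 1, 4, 5 and 6 and at 1464, 1313, 1585 and 1393 CPM in HAMSB 1, 2, 5 and 6, and fell by 0.92 (SE 0.17, edgeR adjusted p = 0.00913). Elovl5 fell by 0.92, and Lpin1 rose by 0.56 (SE 0.091, edgeR adjusted p = 0.00447). Of 31 cholesterol genes 2 fell, Sc5d (-0.99) and Cyp51 (-0.58), both in the late steps of synthesis. The glucose transporter gene Slc2a1 (GLUT1) was the only 1 of 24 genes for glucose uptake and glycolysis to pass, at 66.9 to 85.4 CPM in HAMS and 44.5 to 48.1 CPM in HAMSB (-0.74, SE 0.129, edgeR adjusted p = 0.00646). Elovl5 and Cyp51 lost their calls without 7 and 6 of the libraries, with edgeR adjusted p of at most 0.14.

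Receptors and carriers of short-chain fatty acids and histone deacetylases showed no calls in the fit over all 4 diets. Only their RNA was measured, not the activity of the proteins. Of 9 tested genes listed as receptors and carriers of short-chain fatty acids 0 passed. Ffar2 ranged from 3.49 to 21.4 CPM in HAMS and from 1.71 to 27.0 CPM in HAMSB (0.23, SE 0.591, edgeR adjusted p = 0.898), with HAMSB 5 the lowest and HAMSB 2 the highest. Hcar2, a butyrate and niacin receptor, was at 0.0432 to 1.22 CPM in HAMSB and 0.0634 to 0.216 CPM in HAMS (1.75, SE 0.791, edgeR adjusted p = 0.33), and HAMSB 1 and 2 held the high values. The carrier gene Slc16a1 (MCT1) overlapped (0.36, SE 0.341, edgeR adjusted p = 0.687). Of 17 histone deacetylases 0 passed, with a median of 0.06, and Hdac1 (-0.05, SE 0.0867), Hdac2 (-0.19, SE 0.0917) and Hdac3 (0.01, SE 0.115) had edgeR adjusted p of 0.836, 0.354 and 0.982. Of 15 histone acetyltransferases 0 passed. Ffar1, counted among those 9 genes, encodes a receptor for medium- and long-chain rather than short-chain fatty acids. It had a value of 0.72 (SE 0.225, edgeR adjusted p = 0.144). Ffar1 passed with all libraries once the split of the numbers 5 and 6 from the others was a term (0.68, edgeR adjusted p = 0.0296), with the numbers 5 and 6 alone (0.92, edgeR adjusted p = 0.0454) and without HAMSB 1 and HAMSB 2 together (1.1, edgeR adjusted p = 0.0278). Hdac5 (0.28, SE 0.117, edgeR adjusted p = 0.285) passed without HAMSB 1 and HAMSB 2 together (0.49, edgeR adjusted p = 0.0427). With SEs of 0.341 to 0.791 for Slc16a1, Ffar2 and Hcar2, differences of more than 2-fold in these genes can be missed.

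Genes of B cell identity and of antigen presentation showed few calls. Of 10 B cell markers 0 passed, and the smallest p values were those of Spib (-0.34, edgeR adjusted p = 0.0986) and Cd22 (0.34, edgeR adjusted p = 0.126). Among 15 MHC class II genes only Rfxap, a subunit of the RFX factor that drives them, passed (-0.50, SE 0.0985, edgeR adjusted p = 0.0139), and it lost its call without 3 of the libraries (edgeR adjusted p of at most 0.0541). Of 14 MHC class I genes and of 11 costimulatory ligands 0 passed, and Tnfsf9 (4-1BB ligand) came nearest (-1.26, SE 0.317, edgeR adjusted p = 0.0583). Tnfsf9 passed in DESeq2 (adjusted p = 0.00279), in limma voom (adjusted p = 0.0323) and in edgeR with only the 2 diets fitted (adjusted p = 0.048), with the split of numbers as a term (adjusted p = 0.0228) or without HAMS 5 (adjusted p = 0.0433). Of 22 genes for NF-kappaB subunits and inhibitors Bcl3 fell by 0.73 and Tifa rose by 0.64. Tifa lost its call without HAMS 4 (edgeR adjusted p = 0.0533) and HAMSB 1 (edgeR adjusted p = 0.0507).

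Some groups moved with single libraries or with the library numbers in both diets. Of 50 oxidative phosphorylation genes and 52 cytosolic ribosomal proteins 0 passed, although 48 and 51 had negative values. HAMSB 5 was lowest with medians of -0.72 and -1.03 relative to the HAMS mean. These medians were 0.14 to 0.29 and 0.21 to 0.33 in HAMS 1 and 4. In HAMS 5 and 6 they were -0.28 to -0.17 and -0.29 to -0.23. Of 29 interferon-response genes 1 passed, Stat2 (0.48, SE 0.0879, edgeR adjusted p = 0.00877). The list's median was 1.02 in HAMSB 2 against -0.16 to 0.07 in the other HAMSB libraries. In HAMS 1 the interferon median was 0.48, and in HAMS 4, 5 and 6 it was -0.22 to -0.04. Of 30 cell cycle genes 0 passed. Their medians were 0.51 and 0.95 in HAMSB 1 and 2 and -0.41 and -0.21 in HAMSB 5 and 6. In HAMS 1, 4, 5 and 6 the cell cycle medians were 0.40, 0.13, -0.07 and -0.44. Of 17 T cell markers 16 had positive values, and their sum was 430 CPM in HAMSB 1 and 569 CPM in HAMSB 2, against 183 to 351 CPM in HAMS and 245 and 308 CPM in HAMSB 6 and HAMSB 5. All 14 neutrophil markers had positive values, and they summed to 115, 280, 68.3 and 47.1 CPM in HAMSB 1, 2, 5 and 6 and to 20.8, 38.5, 6.81 and 119 CPM in HAMS 1, 4, 5 and 6, so that HAMS 6 lay above HAMSB 1 and all HAMSB libraries lay above HAMS 1, 4 and 5. In HAMSB and HAMS respectively NK cell markers summed to 18.3 to 84.3 and 15.9 to 27.8 CPM, and platelet markers to 233 to 504 and 388 to 795 CPM. The only markers of these lists at 0 in any of the 8 libraries were Klra8, Ly6g and Hba-a2. None of these markers passed the test, and their part in the other results was not tested. In bulk RNA fewer cells of a type and less RNA per cell cannot be told apart. Sik1, Dusp1, Ddit4 and Pmepa1 fell by 2.69, 2.38, 2.52 and 1.61 without HAMSB 1 and HAMSB 2, and Gpr155 and Slamf7 rose by 1.29 and 1.29, all past the threshold.

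The NP libraries give further levels for the same genes, and the comparisons with them share the HAMS or the HAMSB libraries with the one above. Over all genes 2.06% were called lower and 2.27% higher in HAMS than in NP (4.33% in all), and 0.0732% lower and 0.0% higher in HAMSB than in NP. On the log2 scale the NP mean lay closer to HAMSB than to HAMS for 171 of 187 falls and 56 of 65 rises. Of the falls 154 were also called higher in HAMS than in NP, and of the rises 42 were called lower. In HAMSB against NP 1 of the falls and 0 of the rises were called. The HAMS libraries also helped to pick these genes, so the counts are not separate support. Sik1 was at 76.0 to 131 CPM in NP, between the other diets. It was higher in HAMS than in NP by 1.61 (SE 0.297, edgeR adjusted p = 0.00682), and the value of HAMSB minus NP was -1.08 (SE 0.295, edgeR adjusted p = 0.257). Dusp1 was at 10.7 to 20.1 CPM in NP, with 1.85 for HAMS minus NP (SE 0.251, edgeR adjusted p = 0.00132) and -0.42 for HAMSB minus NP (SE 0.247, edgeR adjusted p = 0.868). Pmepa1 was at 14.3 to 24.5 CPM in NP, with 1.11 for HAMS minus NP (SE 0.156, edgeR adjusted p = 0.00141) and -0.42 for HAMSB minus NP (SE 0.155, edgeR adjusted p = 0.511). Dnaja1 was at 62.9, 62.7, 70.4 and 99.8 CPM in NP, a range that holds all 4 HAMSB libraries. Ddit4 lay between the other diets at 101 to 215 CPM in NP, fell in HAMSB against NP by 1.48 (SE 0.242, edgeR adjusted p = 0.039) and did not pass in HAMS against NP (0.77, SE 0.238, edgeR adjusted p = 0.0849). Among rises Gpr155 was at 23.6 to 30.3 CPM in NP, with -1.04 for HAMS minus NP (SE 0.121, edgeR adjusted p = 0.000677) and 0.22 for HAMSB minus NP (SE 0.119, edgeR adjusted p = 0.823). Cd180 was at 302 to 336 CPM in NP, with -1.15 for HAMS minus NP (SE 0.139, edgeR adjusted p = 0.000762) and -0.15 for HAMSB minus NP (SE 0.138, edgeR adjusted p = 0.978).

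Beside them the HAMSA libraries were spread. Sik1 was at 123, 74.1, 121 and 283 CPM in HAMSA 1, 2, 3 and 6, and Dnaja1 at 173, 113, 80.6 and 307 CPM. HAMSA 6 lay within the range of the HAMS libraries for both genes and the other HAMSA libraries lay below it. Pmepa1 was at 34 to 41.7 CPM in HAMSA, near the HAMS range of 35.2 to 49.3 CPM, and Gpr155 was at 15.6 to 18.6 CPM, between HAMS and HAMSB.

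The genes that fell were shorter and simpler in structure than tested genes as a whole, as a description without a test. Over protein-coding genes in GENCODE M21, the 171 that fell had a median of 5 exons in the longest transcript and a median span of 13485 bases, against 8 exons and 23493 bases over 12439 tested genes. The 57 protein-coding genes that rose had a median of 9 exons and a span of 37927 bases. Single-exon genes numbered 20 among those that fell, such as Hspa1b and Cebpb, and 0 among those that rose. The median average level was 6.25 log2 CPM for genes that fell, 6.08 for genes that rose and 4.85 for all tested genes.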

How the data were processed

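Poly(A) RNA of negatively selected splenic B cells was sequenced in 16 libraries of 4 diets. The authors deposited a table of whole-number read counts for 39179 genes; STAR, featureCounts, Subread, edgeR and limma are named in the submitters' processing notes, and the genome build is not given in the sources used here. Of the gene IDs 37693 matched GENCODE M21. Diets were taken from the labels, which give 4 libraries a diet and also speak of triplicates.

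From the counts, genes with enough reads (edgeR's filter, minimum count 10) were scaled by TMM and fitted over all 4 diets with edgeR 4.0.16 quasi-likelihood in R 4.3.3, without a replicate block (12 residual degrees of freedom), and p-values were adjusted over 15021 genes. DESeq2 1.42.0 and limma 3.58.1 were alternatives. The biological coefficient of variation was 22.1%. The scripts were tested on simulated data.

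Named genes were the 20 largest rises and falls above a log2 CPM of 1 that did not overlap, list members that passed or had the smallest p, and 13 single genes, of which 1 is not reported here; others are marked as chosen after their values were seen. The comparison, the members and the gene lists were chosen with earlier results of these data known.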

Additional observations from a re-analysis of the deposited data

Results flagged for a closer look

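In 6 of 248 groups of 4 libraries (124 named genes in each of the 2 diets) 1 library stood apart from the other 3 by Dixon's ratio, and chance alone does so in about 1 in 20 groups. Hspe1 was at 23.1 CPM in HAMSB 5 against 39.7 to 41.4 CPM in the other HAMSB libraries, and Hspa8 was at 174 CPM in HAMSB 5 against 230 to 241 CPM. Hsph1 was at 116 CPM in HAMSB 2 against 152 to 158 CPM. Among HAMS libraries, the co-chaperone gene Bag3 was at 8.27 CPM in HAMS 4 against 4.23 to 4.5 CPM in the others. Nr4a3 was at 7.95 CPM in HAMS 1 against 15.9 to 16.6 CPM, and Arhgef3 was at 208 CPM in HAMS 6 against 135 to 146 CPM. All 6 genes passed the test with every library included.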

How the results depend on the processing

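None of the 104 named genes that passed the test changed direction in any of the 23 alternatives that gave it a value, which was all 23 for each gene but Gprc5a and Dpf3, with 21 each. Of these genes 24 passed in every alternative, and 57 passed without each of the 8 libraries in turn. The counts of lower and higher genes were 411 and 196 with DESeq2 and 109 and 27 with only the 2 diets fitted. They were 92 and 63 without HAMSB 1 and HAMSB 2 together. With diets split by number in a fit of all 16 libraries, the numbers 5 and 6 gave 64 and 38. The numbers 1 to 4 gave 77 and 31. Higher genes numbered 142 with library totals, 43 with no filter on low counts, 123 with a covariate for reads that fell outside annotated exons and 109 with the split of the numbers 5 and 6 from the others as a term. Leaving out 1 library gave 92 to 184 lower and 35 to 59 higher genes. With the replicate block 114 genes were lower and 49 higher. The block left 2 of the 6 HSP70 and 2 of the 7 chaperonin calls. Same-numbered HAMS and HAMSB libraries had correlations of deviations of 0.34, 0.25 and 0.07, and not every pair was above 0.1, so the numbers were not taken as pairs. Numbers 5 and 6 deviated together across diets, with 0.49 for HAMS 6 and HAMSB 5 and 0.31 for HAMS 5 and HAMSB 6, against -0.41 for HAMS 1 and HAMSB 5. The alternatives that leave out a pair of libraries or take the split of numbers as a term were chosen after seeing the data.

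Of named genes that had not passed, Prkar1a, Fosl2, Per1, Tnfsf9, Spib, Cd22, Psma1, Ffar1 and Hdac5 passed in at least 1 alternative. Prkar1a, Spib and Cd22 passed in DESeq2 (adjusted p = 0.0282, 0.00503 and 0.015), and Cd22 also with library totals (edgeR adjusted p = 0.0466). Signs turned only for named genes that had not passed. Hsf1 was at -0.00751 with DESeq2, -0.00386 with limma voom, -0.00724 with RLE scaling, -0.198 with numbers 1 to 4, -0.0401 with the covariate, -0.00678 with the term and -0.0868 without HAMS 1 and HAMSB 5. Hdac3 was at -6.06e-07 with DESeq2 and -0.0533 with numbers 1 to 4, and Ffar2 at -0.00384 with limma voom. Hdac1 was at 0.0222 with library totals. With numbers 5 and 6 alone Hdac1 was at 0.0313, Hcar2 at -0.565 and Slc16a1 at -0.337, and Slc16a1 was at -0.141 with the replicate block. Without HAMSB 1 and HAMSB 2 together Prdm1 was at -0.116, Hdac1 at 0.0237, Hdac3 at -0.0792, Ffar2 at -0.705, Hcar2 at -0.534 and Slc16a1 at -0.305. Leaving out 1 library gave -0.0878 to 0.0607 for Hsf1, -0.0217 to 0.279 for Prdm1, -0.0513 to 0.0638 for Hdac3 and -0.0917 to 0.609 for Ffar2. The cause was not tested.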
